A study of Homo sapiens with 10 samples.

Results

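Guidance genes here are the human genes of the Eph, ephrin, semaphorin, plexin, neuropilin, Robo, Slit, netrin and UNC5 families, taken by gene symbol. This set of families was chosen with earlier results of these data known. The files list 59 guidance genes among 27884 genes. Of these, 49 reached a minimum of 10 normalized counts in 5 or more libraries and were tested, as were 17518 genes in all. Their RNA was measured in PANC-1, a human cell line established from a ductal adenocarcinoma of the pancreas, with 5 libraries of ribosome-depleted total RNA each for shPAR1 and shCtrl cells. In shPAR1 cells a lentivirus delivered a short hairpin RNA that targets F2R, the gene for protease-activated receptor 1 (PAR1), and shCtrl cells received a control hairpin. Both were grown in serum-supplemented DMEM and were selected with puromycin. A single hairpin against F2R was used, so its effect on F2R and any effect on other transcripts cannot be told apart. Whether libraries of the same hairpin represent separate cultures is not stated, so the spread behind each p-value may be technical.

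Guidance proteins were first described as cues that attract or repel growing axons, and the same families act in blood vessels, epithelia and tumours. Ephrins are ligands fixed to the cell surface that bind Eph receptor tyrosine kinases on a neighbouring cell. Class 3 semaphorins are secreted and bind neuropilins, which pass the signal on through plexins, whereas most membrane-bound semaphorins bind plexins directly. Slits bind Robo receptors, and netrins bind DCC, neogenin and UNC5 receptors, and most of these pathways end in small GTPases that reshape the actin cytoskeleton.

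Values are log2(normalized count + 1), and a difference between groups is a log2 fold change from limma, positive where shPAR1 was higher, with Benjamini-Hochberg adjustment over all 17518 genes at a threshold of 0.05. The libraries held 15335264 to 25369056 counts. F2R stood at 10.20, 10.24, 10.31, 10.18 and 10.21 in shPAR1 libraries 1 to 5 and at 11.81, 11.75, 11.74, 11.80 and 11.82 in shCtrl libraries 6 to 10. Each shPAR1 library thus lay under each shCtrl library, as the labels would have it, with a log2 fold change of -1.56 (SE 0.04, limma adjusted p = 7.69e-15) and mean normalized counts that dropped by 66.0% (exact two-sided permutation p = 0.00794, the smallest that this design allows). The mitochondrial share of counts was higher in shPAR1 libraries (7.37% to 9.08%) than in shCtrl libraries (5.71% to 7.07%), and its part in the results was not tested. For the guidance genes, libraries differed within each group. Library 5 was the lowest shPAR1 library for 26 of the 49 tested genes, with a median of -0.13 from its group mean. Library 6 was the lowest shCtrl library for 21, with a median of -0.08. Libraries 2 of shPAR1 and 9 of shCtrl were each the highest of their group for 22 genes, with medians of 0.10 and 0.06. Over all tested genes the medians of libraries 5 and 6 were 0.01 and -0.0009. Over 2885 genes with a GC content as high as that of the median guidance gene they were -0.11 and -0.08. Without libraries 5 and 6, 29 guidance genes were higher and 7 lower, beside 3174 and 3773 of all 17518 tested genes.

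Guidance RNAs rose more often than they fell. Because the set was chosen with earlier results of these data known, the shares below only describe it. Of the 49 tested genes 27 were higher and 9 lower in shPAR1 cells, and 13 did not pass the threshold. Thus 55.1% were higher and 18.4% lower, beside 19.0% and 21.9% of all tested genes. In either direction 73.5% passed, beside 40.9% of all tested genes. Of tested protein-coding genes 22.5% were higher and 26.4% lower, and 48.9% passed in either direction. A change of at least 1.5-fold was seen for 12 higher and 2 lower guidance genes (24.5% and 4.08%), beside 5.41% and 4.48% of all tested genes. The ranges of both groups did not overlap for 26 genes (53.1%), beside 29.2% of all tested genes. The median log2 fold change was 0.29 over the guidance genes and -0.0046 over all tested genes. Ligands and receptors both contributed. Of 27 tested ligands 17 were higher and 5 lower, and of 22 tested receptors 10 were higher and 4 lower. In bulk RNA, fewer cells with a transcript and less of it per cell cannot be told apart.

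**Figure D1:**
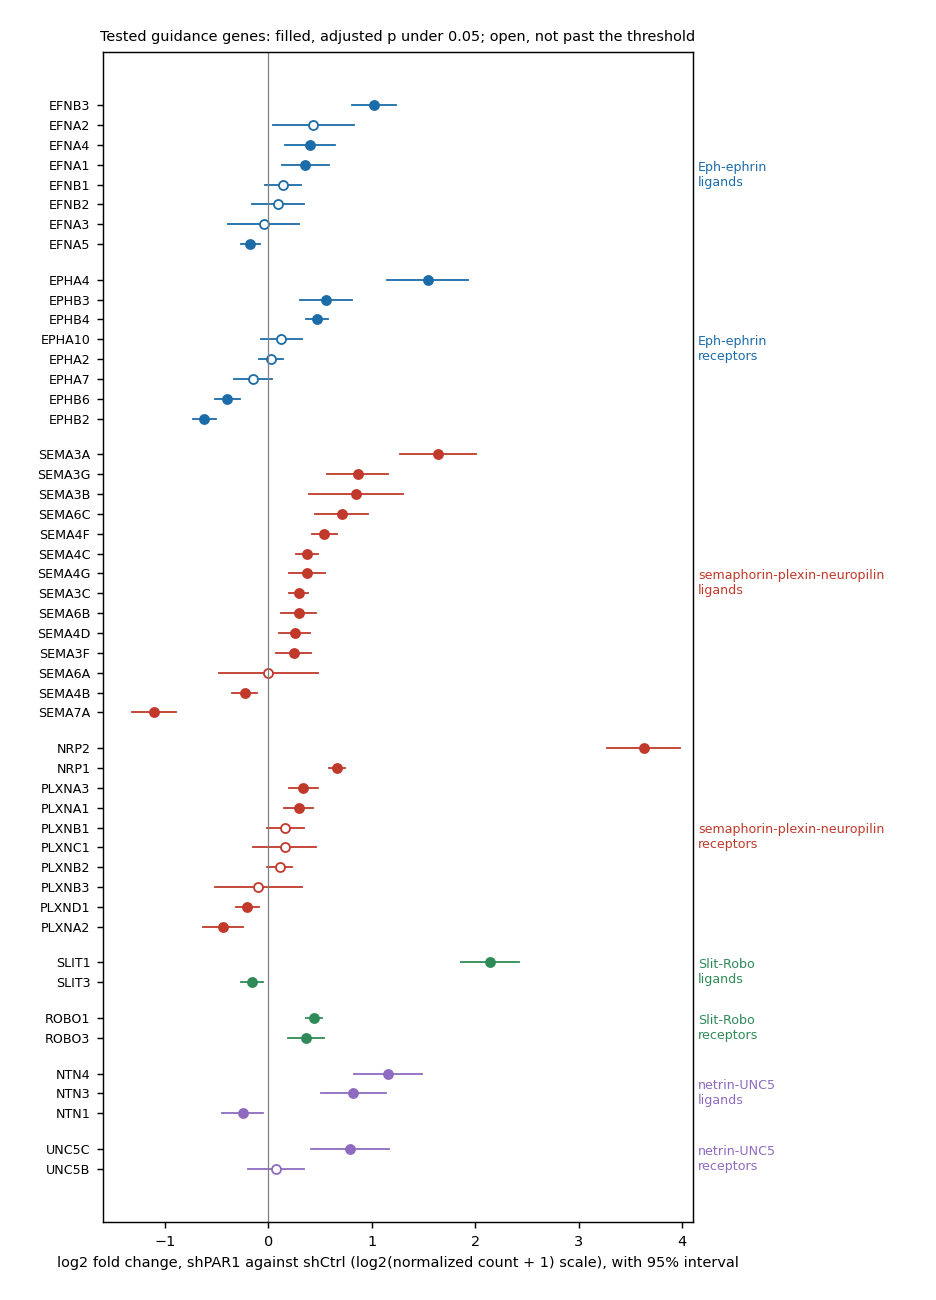
Log2 fold change of each tested guidance gene, shPAR1 against shCtrl, with its 95% interval from limma (5 libraries per group), ordered within ligands and receptors of each system. Filled points passed an adjusted p of 0.05, open points did not. NRP2 lies far to the right at 3.63, SLIT1 follows at 2.14, and SEMA7A is farthest to the left at -1.11.

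The promoters of the receptor and the ligand that rose most (NRP2 and SLIT1) and of the gene that fell most (SEMA7A) are shown, since these genes moved in opposite directions. Each run gives the 250 bases before the RefSeq start in GRCh38.p14, read 5′ to 3′ on the gene's own strand, and capitals mark every GC box (GGGCGG on either strand), a common promoter element that binds Sp1. NRP2 is at chr2:205682251-205682500 on the plus strand, SLIT1 at chr10:97185960-97186209 on the minus strand and SEMA7A at chr15:74433959-74434208 on the minus strand. The NRP2 window lies before the RefSeq start but inside the gene as GENCODE 44 annotates it, which begins further upstream at 205681990.
NRP2: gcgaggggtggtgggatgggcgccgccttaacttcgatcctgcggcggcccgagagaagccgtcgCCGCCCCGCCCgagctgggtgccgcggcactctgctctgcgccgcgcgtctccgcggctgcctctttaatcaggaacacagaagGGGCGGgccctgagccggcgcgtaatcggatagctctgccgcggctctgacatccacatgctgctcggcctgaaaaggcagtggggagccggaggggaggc
SLIT1: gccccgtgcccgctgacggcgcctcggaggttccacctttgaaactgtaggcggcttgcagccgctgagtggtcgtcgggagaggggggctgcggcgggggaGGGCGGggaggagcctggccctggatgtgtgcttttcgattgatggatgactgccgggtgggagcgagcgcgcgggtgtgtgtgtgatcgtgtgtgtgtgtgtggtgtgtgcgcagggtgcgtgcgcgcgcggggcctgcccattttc
SEMA7A: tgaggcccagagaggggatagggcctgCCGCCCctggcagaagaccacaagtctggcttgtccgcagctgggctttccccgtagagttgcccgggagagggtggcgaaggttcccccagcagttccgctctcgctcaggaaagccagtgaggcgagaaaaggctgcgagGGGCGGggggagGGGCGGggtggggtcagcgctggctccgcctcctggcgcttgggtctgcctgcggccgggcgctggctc
These windows hold 3, 1 and 3 GC boxes, so both directions of change are found among carriers. RefSeq promoters were matched for 50 of the 59 guidance genes. A GC box was found in 78% of them, in 42.3% of 27305 RefSeq promoters of the same length and in 67.1% of the 10532 that belong to tested genes. The median GC content of these 3 sets of promoters was 67%, 58% and 65.2%, and its part in these shares was not tested. Among guidance genes, it was in 17 of 22 promoters of those higher, 7 of 8 of those lower and 9 of 10 of those tested but not past the threshold. The E-box CACGTG, the letters bound by Myc and related factors, was in 3 of 50 (6%), beside 6.49% of all promoters and 8.93% of those of tested genes. The AP-1 letters TGACTCA, searched on both strands, were in 0 of 50, beside 4.16% and 2.52%. These are matches of letters, and nothing here measured binding.

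Neuropilins, the co-receptors of class 3 semaphorins and of VEGF, both rose. NRP2, at chr2:205681990-205798133 on the plus strand, was at 7.04, 6.66, 6.79, 7.11 and 6.48 in shPAR1 libraries 1 to 5 and at 3.05, 3.32, 3.42, 3.01 and 3.15 in shCtrl libraries 6 to 10. The groups were far apart, and library 5 was the lowest of the shPAR1 group. Whole counts were 7 to 10 in shCtrl and 86 to 128 in shPAR1 libraries, so the shCtrl level rests on few reads. All shCtrl libraries were below the minimum of 10 normalized counts (mean 8.17). NRP2 was therefore tested only because of its shPAR1 values. Its log2 fold change was 3.63 (SE 0.17, limma adjusted p = 8.25e-12), the largest among the guidance genes, and the ratio of mean normalized counts was 13.8. NRP1, which had far more reads (4070 to 7673), was at 12.71, 12.68, 12.72, 12.77 and 12.68 in shPAR1 libraries 1 to 5 and at 12.02, 12.01, 12.10, 12.06 and 12.07 in shCtrl libraries 6 to 10. All its shPAR1 values were higher, within a narrow spread in both groups, with a log2 fold change of 0.66 (SE 0.036, limma adjusted p = 9.82e-11), a ratio of 1.58. NRP1 remained the main neuropilin. Per kilobase of transcript, NRP2 made up 0.163% ± 0.022 (SD, n = 5) of neuropilin RNA in shCtrl and 1.41% ± 0.22 (SD, n = 5) in shPAR1 cells.

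The secreted class 3 semaphorins, ligands of neuropilins, were higher in all 5 tested cases, beside 19.0% of all tested genes. SEMA3A, a repellent that binds NRP1, lies at chr7:83955777-84492724 on the minus strand and was at 6.77, 6.52, 6.61, 6.26 and 6.74 in shPAR1 libraries 1 to 5 and at 5.03, 5.06, 4.27, 4.97 and 5.36 in shCtrl libraries 6 to 10. Library 8 had the lowest value, and the groups did not overlap. Its log2 fold change was 1.64 (SE 0.17, limma adjusted p = 5.71e-07), a ratio of 3.12 in mean normalized counts. SEMA3C, which binds both neuropilins and was the most abundant of the class, was at 12.08, 11.90, 11.99, 12.003 and 12.05 in shPAR1 libraries 1 to 5 and at 11.81, 11.68, 11.66, 11.69 and 11.74 in shCtrl libraries 6 to 10. The groups again did not overlap, but the gap was small, with a log2 fold change of 0.29 (SE 0.043, limma adjusted p = 3.08e-05). SEMA3C made up 84.4% ± 1.6 (SD, n = 5) of class 3 RNA per kilobase in shCtrl and 83.6% ± 1.4 (SD, n = 5) in shPAR1 cells, beside 0.459% and 1.16% for SEMA3A.

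SEMA3G, another secreted member with low counts (31 to 90), was at 5.98, 6.29, 5.91, 5.68 and 5.79 in shPAR1 libraries 1 to 5 and at 4.95, 5.06, 5.10, 5.01 and 5.21 in shCtrl libraries 6 to 10. SEMA3B was lower still, with 11 to 39 counts, at 5.31, 5.10, 5.18, 4.74 and 4.89 in shPAR1 libraries 1 to 5 and at 4.26, 3.45, 4.27, 4.60 and 4.42 in shCtrl libraries 6 to 10. In both genes the lowest shPAR1 library, library 4, was above the highest shCtrl library. Their log2 fold changes were 0.86 (SE 0.14, limma adjusted p = 7.68e-05) and 0.84 (SE 0.22, limma adjusted p = 0.00419). SEMA3F, an NRP2 ligand, overlapped between groups and had a log2 fold change of 0.24 (SE 0.079, limma adjusted p = 0.0194), a call that was lost (adjusted p = 0.0629 at the highest) without shPAR1 library 4 or without shCtrl library 6. Whole counts of SEMA3E, a ligand of PLXND1, were 6, 5, 1, 1 and 6 in shPAR1 and 0, 0, 1, 0 and 0 in shCtrl libraries. It was below the count minimum and was not tested.

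Among the membrane-bound semaphorins, 4 of the 5 tested class 4 members rose and the most abundant one fell. Of all tested genes 19.0% were higher and 21.9% lower. SEMA4B had the highest level per kilobase of all guidance genes and was at 14.13, 14.40, 14.36, 14.25 and 14.09 in shPAR1 libraries 1 to 5 and at 14.40, 14.45, 14.53, 14.54 and 14.45 in shCtrl libraries 6 to 10. Its groups overlapped, because shPAR1 library 2 reached the lowest shCtrl library. It fell by 0.23 on the log2 scale (SE 0.056, limma adjusted p = 0.00307). SEMA4F, SEMA4C, SEMA4G and SEMA4D rose by 0.54, 0.38, 0.38 and 0.25. The share of SEMA4B in class 4 RNA per kilobase was 92.6% ± 0.20 (SD, n = 5) in shCtrl and 89.2% ± 0.51 (SD, n = 5) in shPAR1 cells, without overlap between libraries.

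Of the transmembrane class 6 semaphorins, which bind A-type plexins, SEMA6C was at 7.18, 7.11, 7.0, 6.77 and 6.68 in shPAR1 libraries 1 to 5 and at 6.30, 5.98, 6.34, 6.46 and 6.11 in shCtrl libraries 6 to 10. No library of one group entered the range of the other, and the log2 fold change was 0.71 (SE 0.12, limma adjusted p = 1.29e-04). SEMA6B, the most abundant of the class, was at 8.27, 8.58, 8.50, 8.47 and 8.15 in shPAR1 libraries 1 to 5 and at 8.05, 8.18, 8.09, 8.15 and 8.05 in shCtrl libraries 6 to 10. Library 5 fell inside the shCtrl range, and the log2 fold change was 0.29 (SE 0.079, limma adjusted p = 0.00631). SEMA6A had 15 to 30 counts and a log2 fold change of -0.0005 with an interval from -0.48 to 0.48. Changes within this interval were therefore not excluded.

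SEMA7A is anchored in the membrane by a lipid and binds integrin β1 and PLXNC1. The gene lies at chr15:74409289-74433958 on the minus strand and was at 6.12, 6.45, 6.48, 6.07 and 6.45 in shPAR1 libraries 1 to 5 and at 7.49, 7.47, 7.33, 7.34 and 7.47 in shCtrl libraries 6 to 10. All shCtrl values lay well above all shPAR1 values. Its log2 fold change of -1.11 (SE 0.1, limma adjusted p = 9.88e-08) was the largest fall among the guidance genes, and its mean normalized count fell by 53.6%. PLXNC1, its plexin, had a log2 fold change of 0.16 with an interval from -0.15 to 0.46.

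Plexins, the signalling receptors of semaphorins, changed little and in both directions. PLXNA3 and PLXNA1 rose by 0.34 and 0.29, whereas PLXNA2 fell by 0.44 and PLXND1, the receptor of SEMA3E, fell by 0.20. Only for PLXNA2 were the groups without overlap. PLXNB2, the most abundant plexin per kilobase, was at 12.20, 12.36, 12.33, 12.23 and 12.03 in shPAR1 libraries 1 to 5 and at 12.01, 12.14, 12.18, 12.19 and 12.08 in shCtrl libraries 6 to 10. The groups overlapped, and its log2 fold change was 0.11 (SE 0.057, limma adjusted p = 0.136). Without library 5 of shPAR1, PLXNB2 and PLXNB1 passed the threshold. PLXNB1, the receptor of SEMA4D, and PLXNB3 had log2 fold changes of 0.16 and -0.10, with intervals from -0.02 to 0.34 and from -0.52 to 0.33.

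**Figure D2:**
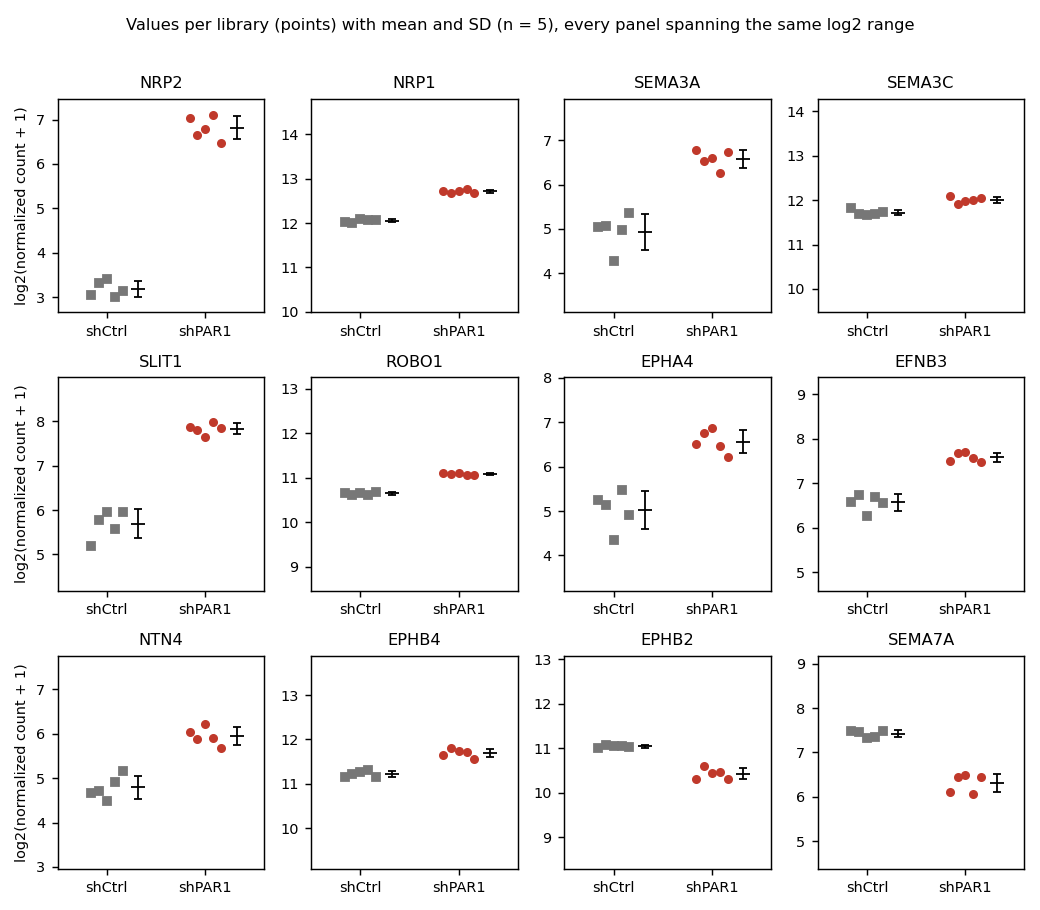
Log2(normalized count + 1) of 12 guidance genes in each library, with shCtrl libraries as grey squares and shPAR1 libraries as red circles, and the mean and SD of each group (n = 5) beside them. Every panel spans the same number of log2 units, so the distance between groups can be compared across genes. The 12 genes were picked for display from the 26 of 49 tested genes whose groups did not overlap. The gap is widest in NRP2 and narrowest in SEMA3C.

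Eph receptors and ephrins split by member. EPHA4, a receptor that binds ephrins of both classes, lies at chr2:221418027-221574202 on the minus strand and was at 6.50, 6.76, 6.87, 6.47 and 6.23 in shPAR1 libraries 1 to 5 and at 5.25, 5.14, 4.35, 5.47 and 4.91 in shCtrl libraries 6 to 10. Library 8 was again the lowest and library 5 the lowest of shPAR1, with no overlap and 18 to 125 counts. Its log2 fold change was 1.54 (SE 0.18, limma adjusted p = 2.60e-06), a ratio of 2.90. EPHA2, the most abundant EphA receptor per kilobase and a kinase gene often expressed in epithelial tumours, was at 12.63, 12.85, 12.78, 12.70 and 12.54 in shPAR1 libraries 1 to 5 and at 12.59, 12.63, 12.75, 12.76 and 12.65 in shCtrl libraries 6 to 10. The groups overlapped throughout, and the log2 fold change of 0.02 (SE 0.054, limma adjusted p = 0.763) had an interval from -0.09 to 0.14. EPHA7 and EPHA10, a receptor without kinase activity, did not pass the threshold either, at -0.15 and 0.12.

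The 4 tested EphB receptors all changed, in opposite directions and without overlap. Of all tested genes, 40.9% passed the threshold and 29.2% had groups without overlap. EPHB2 was at 10.30, 10.61, 10.44, 10.46 and 10.32 in shPAR1 libraries 1 to 5 and at 10.999, 11.07, 11.06, 11.06 and 11.03 in shCtrl libraries 6 to 10. The shCtrl values were nearly equal, and the highest shPAR1 library, library 2, remained below them. EPHB2 had a log2 fold change of -0.62 (SE 0.053, limma adjusted p = 3.77e-08), and its mean normalized count fell by 34.8%. EPHB6, which lacks kinase activity and had the highest level per kilobase of all Eph receptors, was at 12.95, 13.24, 13.19, 12.99 and 12.95 in shPAR1 libraries 1 to 5 and at 13.38, 13.48, 13.45, 13.55 and 13.46 in shCtrl libraries 6 to 10. It too was lower in every shPAR1 library, with a log2 fold change of -0.40 (SE 0.056, limma adjusted p = 1.67e-05). EPHB4, the receptor of ephrin-B2, and EPHB3 rose by 0.47 and 0.55. EPHB4 shares its locus with SLC12A9 on the other strand, which had 491 mean normalized counts beside 2858 for EPHB4. Summed over the family, EphB receptors reached 15054 to 16699 normalized counts in shCtrl libraries against 12291 to 14911 in shPAR1 libraries. EPHB6 was the largest part of this sum, with a mean of 9952 over all libraries.

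Among the ephrins, EFNB3 (ephrin-B3), at chr17:7705202-7711372 on the plus strand, was at 7.51, 7.68, 7.71, 7.57 and 7.47 in shPAR1 libraries 1 to 5 and at 6.59, 6.74, 6.26, 6.70 and 6.56 in shCtrl libraries 6 to 10. The lowest shPAR1 library exceeded the highest shCtrl library, and the log2 fold change was 1.02 (SE 0.099, limma adjusted p = 1.87e-07), a ratio of 2.03. Its share of ephrin-B RNA per kilobase was 29.7% ± 1.7 (SD, n = 5) in shCtrl and 44% ± 1.8 (SD, n = 5) in shPAR1 cells. EFNB1 (ephrin-B1), the most abundant ephrin-B in shCtrl cells, was at 7.55, 7.71, 7.66, 7.48 and 7.70 in shPAR1 libraries 1 to 5 and at 7.40, 7.53, 7.39, 7.69 and 7.39 in shCtrl libraries 6 to 10. The ranges overlapped and the log2 fold change of 0.14 (SE 0.083, limma adjusted p = 0.199) did not pass, nor did that of EFNB2 at 0.09. EFNA5, the most abundant ephrin-A, was at 10.20, 10.23, 10.30, 10.20 and 10.19 in shPAR1 libraries 1 to 5 and at 10.44, 10.33, 10.46, 10.40 and 10.37 in shCtrl libraries 6 to 10. Despite a small difference its groups did not overlap, and it fell by 0.18 on the log2 scale (SE 0.044, limma adjusted p = 0.00332). EFNA4 and EFNA1, a ligand of EPHA2, rose by 0.40 and 0.36, whereas EFNA2 and EFNA3 did not pass, at 0.43 and -0.05.

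In the Slit-Robo system one ligand and both tested receptors rose, beside 19.0% of all tested genes. SLIT1, at chr10:96998038-97185959 on the minus strand, was at 7.86, 7.81, 7.66, 7.99 and 7.84 in shPAR1 libraries 1 to 5 and at 5.18, 5.78, 5.96, 5.57 and 5.96 in shCtrl libraries 6 to 10. Library 6 was the lowest, and all shPAR1 values lay well above the shCtrl values, with 177 to 261 against 39 to 78 counts. The log2 fold change was 2.14 (SE 0.13, limma adjusted p = 4.87e-10), a ratio of 4.40. A readthrough gene, ARHGAP19-SLIT1, shares this locus on the same strand and had 7.38 mean normalized counts beside 140 for SLIT1. SLIT3, the main Slit, was at 9.82, 10.01, 9.89, 9.80 and 9.73 in shPAR1 libraries 1 to 5 and at 9.98, 10.01, 10.00, 10.06 and 10.00 in shCtrl libraries 6 to 10. Library 2 reached the shCtrl range, and the small fall, -0.16 (SE 0.052, limma adjusted p = 0.0207), was lost under 3 alternatives. SLIT1 was 5.76% ± 1.2 (SD, n = 5) of Slit RNA per kilobase in shCtrl and 23.2% ± 2.3 (SD, n = 5) in shPAR1 cells.

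ROBO1, the main Slit receptor in these cells, was at 11.11, 11.09, 11.10, 11.06 and 11.07 in shPAR1 libraries 1 to 5 and at 10.66, 10.61, 10.67, 10.61 and 10.69 in shCtrl libraries 6 to 10. The SD was 0.021 in shPAR1 and 0.037 in shCtrl libraries, and all shPAR1 values were higher. Its log2 fold change was 0.44 (SE 0.038, limma adjusted p = 4.11e-08), a ratio of 1.36. ROBO3, a divergent member of the family, rose by 0.36 (SE 0.081, limma adjusted p = 0.00151).

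Netrins and their UNC5 receptors had low counts. NTN4, a netrin that binds laminins, lies at chr12:95657807-95791189 on the minus strand and was at 6.04, 5.89, 6.22, 5.90 and 5.68 in shPAR1 libraries 1 to 5 and at 4.67, 4.71, 4.50, 4.92 and 5.15 in shCtrl libraries 6 to 10. NTN3 was at 6.24, 6.41, 6.20, 6.28 and 6.04 in shPAR1 libraries 1 to 5 and at 4.99, 5.68, 5.23, 5.40 and 5.76 in shCtrl libraries 6 to 10. Neither gene's groups overlapped, and their log2 fold changes were 1.16 (SE 0.16, limma adjusted p = 1.03e-05) and 0.82 (SE 0.15, limma adjusted p = 2.42e-04). NTN1, the best-known netrin, moved the other way at -0.25 (SE 0.094, limma adjusted p = 0.0438), a call that was lost under 11 of 18 alternatives.

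UNC5C, a repulsive netrin receptor, was at 5.73, 6.51, 5.46, 6.22 and 6.27 in shPAR1 libraries 1 to 5 and at 5.03, 5.44, 5.23, 5.33 and 5.21 in shCtrl libraries 6 to 10. Library 3 lay just above the highest shCtrl library, and the shPAR1 group was spread widely, with a log2 fold change of 0.79 (SE 0.18, limma adjusted p = 0.00155). UNC5B, the more abundant UNC5 receptor, was at 6.01, 5.82, 6.01, 6.05 and 5.56 in shPAR1 libraries 1 to 5 and at 5.64, 5.76, 5.94, 5.94 and 5.81 in shCtrl libraries 6 to 10. The groups overlapped, and the log2 fold change was 0.07 (SE 0.13, limma adjusted p = 0.687), with an interval from -0.20 to 0.34.

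Compared per kilobase of the canonical transcript, which allows levels of different genes to be set side by side, guidance RNA was dominated by few genes. SEMA4B had a mean over all libraries of 5588 normalized counts per kilobase, followed by EPHB6 with 2489, EPHA2 with 1676, NRP1 with 972, SEMA3C with 768, PLXNB2 with 724 and EPHB4 with 657. EPHA2 and PLXNB2 did not pass the threshold. The genes with the largest fold changes were at the other end. NRP2 had 1.23 normalized counts per kilobase in shCtrl and 17.0 in shPAR1 cells, SLIT1 had 6.49 and 28.5, SEMA3A had 3.76 and 11.8, and EPHA4 had 5.13 and 14.9. Per family, summed normalized counts were higher in each shPAR1 library for neuropilins (ratio of means 1.61), class 3 semaphorins (1.24), ephrin-B (1.34), Robo (1.35), class 6 semaphorins (1.30), netrins (1.24) and UNC5 receptors (1.35). Sums were lower in each shPAR1 library for EphB receptors (0.843) and SEMA7A (0.464). They overlapped between groups for ephrin-A, EphA, Slit, class 4 semaphorins, class 5 semaphorins (SEMA5B only) and plexins. These sums were not scaled by length and mostly follow the genes with the most counts. Such genes were EPHB6 (mean 9952 over all libraries) among EphB receptors, where EPHB3 and EPHB4 rose, and NRP1 (mean 5483) among neuropilins.

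**Figure D3:**
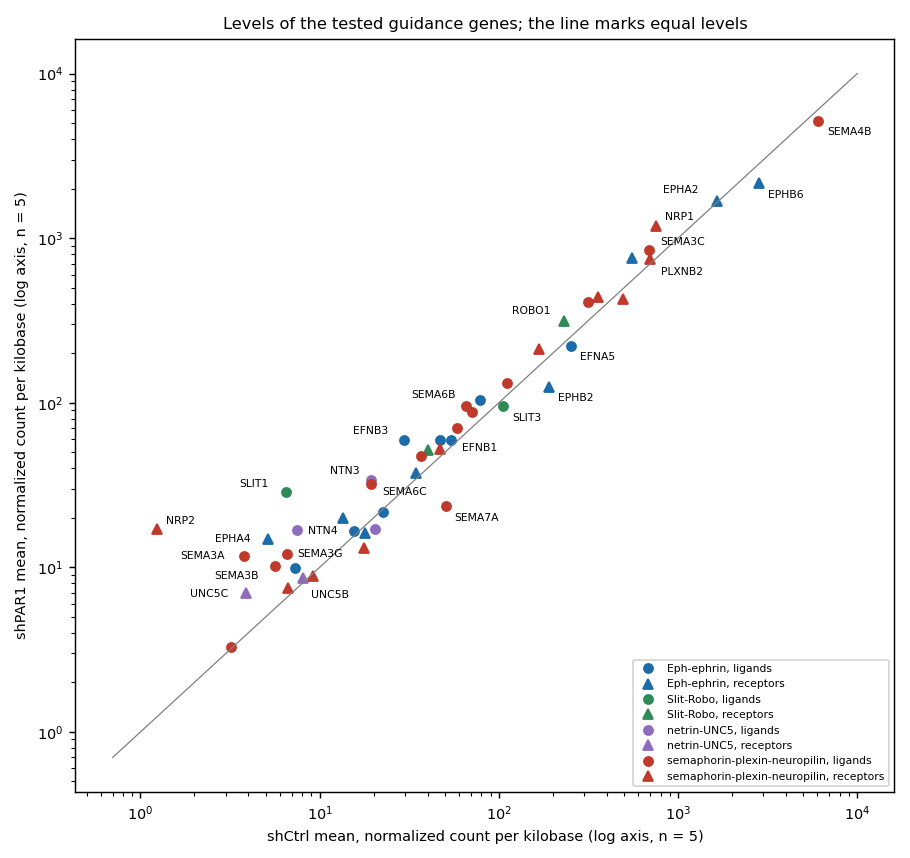
Mean normalized count per kilobase of each tested guidance gene in shCtrl (horizontal) and shPAR1 cells (vertical), both on log axes, with circles for ligands and triangles for receptors and colours for the 4 systems. The grey line marks equal levels. Abundant genes such as SEMA4B, EPHB6 and EPHA2 lie near the line, and NRP2, SLIT1, SEMA3A and EPHA4 lie above it at low levels.

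Of the 59 listed genes 10 were below the count minimum, and their whole counts were between 0 and 15 in every library. They were the Eph receptors EPHA1, EPHA8 and EPHB1, the semaphorins SEMA3E, SEMA4A and SEMA5B, PLXNA4, ROBO4, NTN5 and UNC5A. EPHA8 had 2 to 6 counts in the shPAR1 group and 6 to 12 in the shCtrl group, EPHB1 had 3 to 6 and 2 to 3, and ROBO4, a Robo of endothelial cells, had 1 to 5 and 1 to 3. When every listed gene was tested without a minimum, SEMA3E was the single gene of the 10 to pass, with 19 counts over the shPAR1 and 1 over the shCtrl libraries.

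The heat map of all tested guidance genes shows how uniform the libraries of a group were. For the strongly changed genes at its ends every library of a group lay on the same side. In the middle rows, library 5 of shPAR1 looked like the shCtrl group for PLXNA1, PLXNA3, SEMA3F and SEMA6B, each of which was higher in the other shPAR1 libraries. Library 5 was also the lowest of all 10 for PLXNB3, at 4.84.

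**Figure D4:**
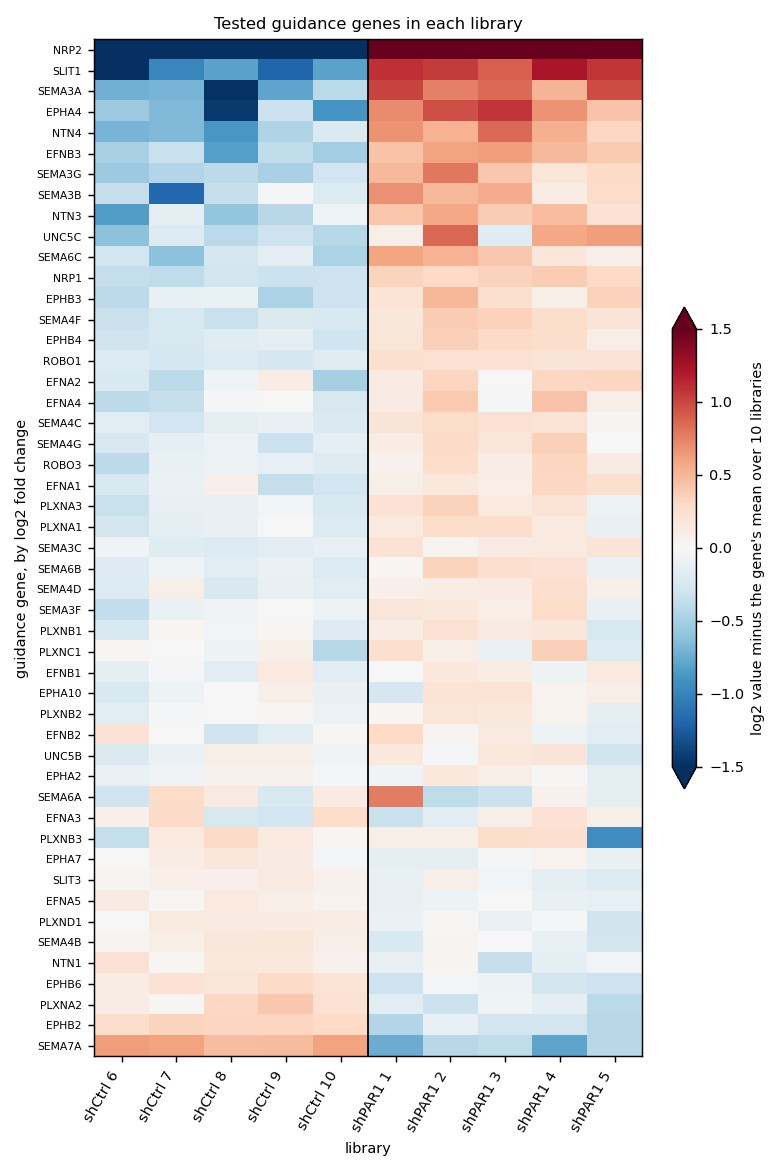
Each tested guidance gene (rows, ordered by log2 fold change) in each library (columns), as the log2 value minus the gene's mean over all 10 libraries. Red is above and blue below the mean, and the colour scale ends at -1.5 and 1.5. Rows at the top (NRP2, SLIT1, SEMA3A) are red in all 5 shPAR1 libraries, SEMA7A at the bottom is blue in all 5, and library 5 of shPAR1 is often paler or bluer than its group.

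Genes that act with these receptors and ligands inside or beside the cell were counted from 3 lists. Of 81 tested genes in the lists, 22 were higher and 20 lower (27.2% and 24.7%), beside 19.0% and 21.9% of all tested genes. Over tested protein-coding genes these shares were 22.5% and 26.4%, close to those of the lists. Of 23 tested partners of Eph receptors and ephrins 6 were higher and 6 lower (26.1% and 26.1%). TIAM1, an exchange factor for Rac, rose by 2.84 (SE 0.18, limma adjusted p = 8.40e-10), ITSN1 by 0.29 and ANKS1B by 0.26. The mean of TIAM1 was 9.66 normalized counts in shCtrl and 73.7 in shPAR1 libraries. Not every shCtrl library reached the minimum of 10, so TIAM1 was tested only because of its shPAR1 values. FYN, a Src family kinase, fell by 0.87, NGEF, an ephexin that binds EphA receptors, fell by 0.68, and CHN1, a Rac-inactivating chimaerin, fell by 0.36.

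Of 28 tested partners of semaphorins and plexins, 4 were higher and 7 lower (14.3% and 25%), beside 19.0% and 21.9% of all tested genes. ERBB2, a receptor tyrosine kinase that associates with B-type plexins, rose by 0.53, MICAL1 by 0.31 and GIPC1 by 0.14. DPYSL5, a collapsin response mediator, fell by 2.00 (SE 0.18, limma adjusted p = 6.05e-08), MICAL2, an actin-oxidizing enzyme, fell by 0.91, and DPYSL2, another collapsin response mediator, fell by 0.34. Of 30 tested partners of Slits, Robos and netrins, 12 were higher and 7 lower (40% and 23.3%). DAPK1, a death-associated kinase that binds UNC5B, rose by 1.41 (SE 0.12, limma adjusted p = 2.24e-08), FLRT1 by 0.88 and MAGED1 by 0.77. NEO1, the netrin receptor neogenin, fell by 0.86 (SE 0.049, limma adjusted p = 1.57e-10), PAK1, a kinase activated by Rac and Cdc42, fell by 0.77, and DRAXIN, a secreted guidance protein, fell by 0.73.

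Several measured features moved with the guidance genes, and their part in the results was not tested. Transcripts of the tested guidance genes were long and rich in GC, with a median length of 4995 bases and a median GC content of 59.4%, against 2715 bases and 48.6% over all tested genes. Among 1135 protein-coding genes within the middle range of the guidance genes for both (3780 to 6841 bases and 50.5% to 62.2% GC), 28.5% were higher, 24.4% lower and the median log2 fold change was 0.04. The 5 ductal epithelial markers were all expressed, and their sum was 53503 to 56827 normalized counts in shCtrl libraries against 35710 to 41869 in shPAR1 libraries. KRT8 was the highest of them (mean 25788 over all libraries), and the sum does not give the direction of each marker. Of 7 fibroblast markers COL1A1, COL3A1, PDGFRA and PDGFRB were expressed, with a sum of 6227 to 7385 in shPAR1 and 4801 to 5558 in shCtrl libraries, most of it COL1A1 (mean 4274 over all libraries), and COL1A2, DCN and LUM were not listed. Of 7 neural and glial markers MAP2, RBFOX3 and TUBB3 were expressed, with a sum of 1400 to 1579 in shPAR1 and 4293 to 4917 in shCtrl libraries, nearly all of it MAP2 (mean 2957 over all libraries). None of the 6 endothelial markers reached the count minimum (sums of 7.94 to 13.7 and 5.04 to 14.9), and of 6 leukocyte markers only CD14 did (sums of 21.6 to 36.3 and 18.0 to 27.2). Whether reads were counted by strand is not stated, so genes that overlap on opposite strands cannot be told apart. Another annotated gene on the other strand overlapped 26 of the 49 tested guidance genes. For 6 of the 49 an overlapping gene on either strand had at least 0.1 of their normalized count, namely EPHB4, PLXNA3, PLXNB3, PLXNC1, SEMA4G and SEMA6A. In 2 of these the overlapping gene, on the other strand, had the higher mean normalized count, with 690 for CEP83 beside 52.8 for PLXNC1 and 911 for MRPL43 beside 189 for SEMA4G, one of the genes that rose.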

How the data were processed

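RNA of 5 shPAR1 and 5 shCtrl libraries of PANC-1 cells was depleted of ribosomal RNA and sequenced as single reads. Per the submitters' processing notes and the paper's methods, reads were checked with FastQC 0.11.5, trimmed with Trimmomatic 0.36, aligned to GRCh38 with HISAT2 2.1.0 and counted with HTSeq, and DESeq2 was used by the authors. Versions of the last 2 tools, the gene annotation and the strandedness of counting were not stated. Per the file values, the authors deposited log2(normalized count + 1), with counts scaled by size factors. Undoing this gave whole counts within 0.00108 (tolerance 0.01), summing to 15335264 to 25369056 per library. This depth limits the precision of genes with few counts.

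Guidance genes were taken by symbol. The members and all lists were chosen with earlier results of these data known. Genes that reached 10 normalized counts in 5 or more libraries (17518 of 27884) were compared with limma 3.58.1 (trended prior variance) in R 4.3.3 on the deposited log2 values, with no covariate and Benjamini-Hochberg adjustment at 0.05 over all of them. A fold change on the log2(normalized count + 1) scale understates the change of low genes. Values per library are given for F2R, for guidance genes past the threshold with a change of at least 1.5-fold and for the gene with the highest level per kilobase in each family. Of each partner list the 3 largest rises and falls are given by their log2 fold change, as are other genes. Coordinates, strands and transcript lengths are from GENCODE 44 (27361 identifiers matched), and promoters from RefSeq GRCh38.p14. Alternatives were TMM factors, library totals, size factors without mitochondrial genes, a pseudocount of 5, no filter, a minimum of 1 CPM throughout either group, voom with sample quality weights and each library left out in turn. Leaving out shPAR1 5 and shCtrl 6 together was chosen after seeing the data. Tables and figures were made with Python 3.11.15, pandas 2.3.3 and matplotlib 3.10.9. Other experiments of the study were not analysed here.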

Additional observations from a re-analysis of the deposited data

Results flagged for a closer look

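A library far from the other 4 of its group was looked for in each tested guidance gene with Dixon's test at its 95% critical value (0.71 for 5 samples). It was found in 5 of 98 groups examined, about as many as chance gives at this level. In shPAR1 library 5, PLXNB1 was at 8.23 on the log2 scale (8.58 to 8.70 in the other libraries of the group) and PLXNB3 at 4.84 (5.86 to 6.04). In shCtrl library 6, PLXND1 was at 11.6 (11.7 to 11.8) and SEMA3F at 8.39 (8.67 to 8.76). In shPAR1 library 4, SEMA4D was high at 8.44 (8.26 to 8.31). Thus 4 of the 5 values, all of them low, came from the 2 libraries that were most often the lowest of their group.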

How the results depend on the processing

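Over 18 alternatives, 26 to 29 guidance genes were higher and 7 to 9 lower in shPAR1 cells, and 20 to 25 partner genes were higher and 18 to 22 lower. Of all tested genes (17518 in the main setting), 2977 to 3722 were higher and 3406 to 4082 lower under these alternatives. Of the 36 guidance genes past the threshold 33 remained so, in the same direction, under each alternative, and the direction of none was reversed. The call of NTN1 was lost under 11 alternatives (adjusted p 0.0275 to 0.112), that of SLIT3 under 3 (0.00262 to 0.055) and that of SEMA3F under 2 (0.00261 to 0.0629). PLXNB2, PLXNB1 and EFNA2 passed under 3, 2 and 2 alternatives. With libraries shPAR1 5 and shCtrl 6 both left out, chosen after seeing the data, 29 guidance genes were higher and 7 lower. Of all 17518 tested genes, 3174 were then higher and 3773 lower. The log2 fold change of NRP2 ranged from 3.15 to 3.73 and that of SLIT1 from 2.01 to 2.21. No paired analysis was possible because the groups share no replicate numbers. A single hairpin and 5 libraries of unstated origin per group limit these results, and genes with few counts, such as NRP2 in shCtrl cells, have the least precise levels.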
